A study of Mus musculus with 18 samples.

Results

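Mature luminal cells of the mouse mammary gland were compared between mice with either of 2 Esr1 mutations and wild-type (WT) mice, all under an estrogen receptor antagonist. The comparison uses 9 of the 18 sequenced libraries, chosen by their labels: 3 D542G and 3 Y541S libraries (the 6 mutant libraries) against 3 WT libraries, each labelled mature luminal (ML). Mice of all 3 genotypes were 6 months old, carried pellets of estradiol (E2) and progesterone (P4), and received giredestrant, an oral antagonist and degrader of estrogen receptor alpha, by mouth at 30 mg/kg once a day for 4 days. The other 9 libraries come from the same genotypes and treatment but from a second sorted population, labelled N. The labels give mature luminal cells as its source too and do not describe the gates. No library came from a mouse without pellets or without giredestrant, so the values describe cells under the drug and cannot show what the drug did. How the Esr1 alleles were made, whether they were carried on 1 or both chromosomes, and whether mice were pooled is stated neither in the labels nor in the design text. The design text calls the 3 libraries of a group biological replicates.

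Mature luminal cells line the ducts and include the hormone-sensing cells of the gland, which carry the estrogen, progesterone and prolactin receptors and signal to their neighbours through secreted factors such as Areg, Wnt4 and Tnfsf11 (RANKL). Estrogen receptor alpha, the product of Esr1, is a transcription factor that binds DNA with Foxa1 and Gata3 and drives genes such as Pgr and Greb1. Y541S and D542G change neighbouring amino acids of its ligand-binding domain and are the mouse counterparts of mutations found in endocrine-resistant human breast cancer, where they keep the receptor active without hormone.

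The ML libraries held 34797778 to 46576132 gene counts and 18891 to 20807 genes with a count. Levels below are in CPM, gene counts scaled to library size with TMM factors. They are listed in the order WT 1 to 3, D542G 1 to 3 and Y541S 1 to 3. In bulk RNA of sorted cells, more cells of a type and more RNA of a gene per cell cannot be told apart. Among the 1216 coding genes nested within a different gene, 1099 were at 0 in all 18 libraries, so a 0 for such genes (Elf3, Csn3, Igkc and Tchh among them) says nothing about expression.

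Luminal identity was clear in all 9 libraries. Epcam, the epithelial adhesion protein, stood at 1997, 2913 and 3081 CPM in WT, 2629, 2877 and 2774 in D542G, and 2967, 2782 and 2336 in Y541S libraries. The highest library was thus less than 2-fold above the lowest, and the genotypes overlapped. Per kilobase of exon, which allows genes to be compared, the luminal keratin Krt19 stood at 4784 CPM per kilobase on average and Krt18, another luminal keratin, at 3488. Prlr, the prolactin receptor, stood at 76.5 on that scale, the pioneer factor Foxa1 at 136, Gata3 at 92.6, Esr1 at 14.1 and Pgr at 2.15. On the same scale the luminal progenitor genes Aldh1a3, Kit and Elf5 stood at 119, 49.4 and 17.1. The 15 pan-luminal genes with counts summed to 18080 to 35080 CPM. Luminal progenitor genes (13 with counts) summed to 1694 to 5273 CPM, with the highest sum in Y541S 2. Immediate early genes were also abundant: Fos, a subunit of AP-1, averaged 9328 ± 6546 CPM (SD, n = 9), with the highest value, 26200 CPM, in Y541S 2.

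Hormone-sensing genes were present in every library but at levels that varied more than the pan-luminal genes. Their 20 members summed to 4070, 5291 and 7718 CPM in WT, 6702, 7904 and 4695 in D542G, and 6816, 2029 and 3377 in Y541S libraries. Y541S 2 was the lowest and D542G 2 the highest, and the WT range lay within that of the mutants. Esr1 (ENSMUSG00000019768, chromosome 10 4611593-5005614, + strand of GRCm38) stood at 118, 187 and 455 CPM in WT, 161, 164 and 216.5 in D542G, and 271, 49.4 and 112 in Y541S libraries. WT 3 and Y541S 2 were the extremes, and the 3 genotypes overlapped. Counts per gene do not show which allele was transcribed. Fxyd2, a sodium pump subunit, was the 1 hormone-sensing gene whose groups did not overlap, at 498, 585 and 1433 CPM in WT and 99.8 to 456 CPM in the mutants. EdgeR did not call it, and DESeq2 in the ML libraries alone did. Over all genes tested, 201 (1.10%) lay lower in all 6 mutant libraries in this way.

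**Figure D1:**
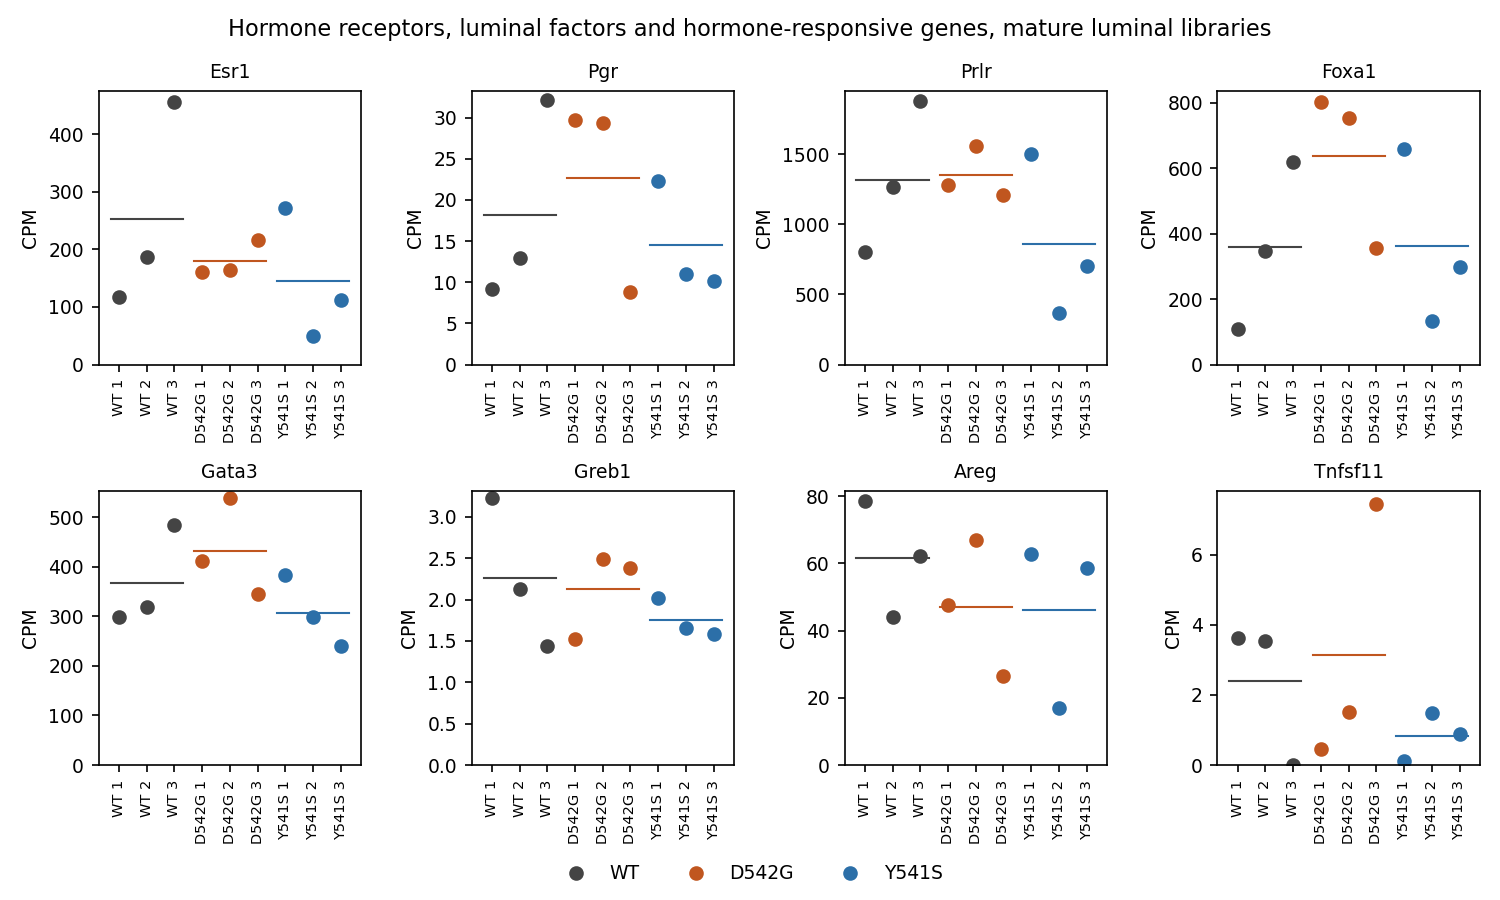
CPM (linear axes from 0) of 8 hormone receptor, luminal factor and hormone-responsive genes in each ML library, coloured by genotype, with a line at each genotype mean. Mutant and WT libraries overlap in all 8 panels, and for Esr1 the WT libraries alone span 118 to 455 CPM.

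Between mutants and WT, Esr1 differed by -0.65 ± 0.80 on the log2 scale (standard error, worked back from the edgeR quasi-likelihood test). Its adjusted p in that test was 0.907, with an approximate 95% interval of -2.37 to 1.06. Without WT 3 the difference was 0.08, and without Y541S 1 it was -1.07. Targets and partners of the receptor were not called either. Greb1, a receptor coactivator gene, was low in all libraries (1.44 to 3.22 CPM, -0.23 ± 0.39, adjusted p = 0.941). Pgr, the progesterone receptor, ranged from 8.81 to 32.1 CPM with a difference of -0.00 ± 0.89 (interval -1.90 to 1.89, adjusted p = 1). Gata3 (240.1 to 538 CPM) had an interval of -0.72 to 0.69, and Foxa1 (107 to 802.5 CPM) one of -1.67 to 2.52. Of 24 measured estrogen-responsive genes none was called (percent called over all genes tested 0), and 1 had an unadjusted p under 0.05 (6.49% of all genes tested, 3.06% higher and 3.43% lower in mutants): Igf1r, the IGF1 receptor, at -1.09 ± 0.41 (adjusted p = 0.767). Their median log2 difference was -0.107, against 0.00374 over all 18298 genes tested.

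Paracrine factors and other progesterone-responsive genes were likewise not called, in 0 of 15 cases. Of these, 4 had an unadjusted p under 0.05, all lower in mutants (3.43% of all genes tested), and the median of the list was -0.571. They were the retinoic acid hydroxylase Cyp26b1 (-3.13), the transcription factor Zbtb16 (-1.57), the helix-loop-helix inhibitor Id4 (-1.58) and the cytokine Lif (-1.05), with adjusted p of 0.756 or more by edgeR. Zbtb16 was the 1 member whose 6 mutant values all lay below the 3 WT values (1.10% of all genes tested). The summed list stood at 932, 859 and 902 CPM in WT, 830.4, 836 and 708 in D542G, and 752, 738 and 747 CPM in Y541S libraries, also without overlap. Wnt4 stood at 263, 155 and 267 CPM in WT against 86.3 to 221 CPM in the mutants (-0.49 ± 0.33, adjusted p = 0.813). Areg, an EGF receptor ligand, stood at 43.9 to 78.4 CPM in WT and 16.8 to 67.0 CPM in mutant libraries. Tnfsf11 was at 0 in WT 3 and at most 7.45 CPM elsewhere.

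Calca, which encodes calcitonin and CGRP, was highest in the D542G libraries. It stood at 155, 154 and 60.1 CPM in the D542G libraries, at 2.97, 7.25 and 27.7 CPM in Y541S and at 27.7, 17.5 and 0.0769 CPM in WT. All 3 D542G values lay above the other 6, but the share of all genes split in this way was not counted. In D542G against Y541S its difference was 3.28 ± 1.61, and edgeR called no gene there (smallest adjusted p = 0.968). Calca was called in none of the alternatives run for mutants against WT.

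Hair follicle keratins were among the most variable genes of the ML libraries, with immunoglobulins and caseins. Their sum over the 20 members with counts was 7019 CPM in WT 1, 1760 in WT 2 and 1.80 in WT 3. It was 168, 0.430 and 1.10 CPM in D542G libraries, and 0.143, 0.725 and 4300 CPM in Y541S libraries. WT 1, WT 2 and Y541S 3 therefore carried the most hair keratin RNA, D542G 1 carried less, and 5 libraries held almost none. Krt71, a keratin of the inner root sheath, had the largest spread within genotypes of the tested genes without predicted-gene names (SD 5.08 on log2(CPM + 1)). It stood at 2521, 509.9 and 0.872 CPM in WT, 46.1, 0.150 and 0 in D542G, and 0, 0 and 1590 in Y541S libraries. Krt25, Krt27, Krt28, Krt73 and Krt75 of the root sheath and companion layer, and Krt35 of the hair shaft, were high in the same 3 libraries, and so was Hoxc13, a regulator of hair keratin genes (47.9, 11.7 and 26.3 CPM there, at most 1.16 CPM elsewhere).

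The start regions of these keratin genes are shown because the genes were high in the same libraries and the letters TATAAA, the core of a TATA box, recur close to their starts. Each line gives the 110 bases before the RefSeq transcription start (build GRCm38.p6, 5′ to 3′ on the gene's strand), with TATAAA in capitals. The windows are chr15:101743098-101743207 for Krt71, chr11:99322952-99323061 for Krt25 and chr11:99351119-99351228 for Krt27, all on the - strand.
Krt71: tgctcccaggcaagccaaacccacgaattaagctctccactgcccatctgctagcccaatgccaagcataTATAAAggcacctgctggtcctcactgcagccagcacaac
Krt25: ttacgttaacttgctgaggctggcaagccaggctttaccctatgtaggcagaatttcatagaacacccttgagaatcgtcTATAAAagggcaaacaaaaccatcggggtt
Krt27: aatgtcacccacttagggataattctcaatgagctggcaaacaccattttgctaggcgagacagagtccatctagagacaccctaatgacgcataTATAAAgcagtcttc
TATAAA was searched on both strands in windows of 300 bases, from 250 before to 50 after each start. It occurred for 12 of the 15 hair keratin genes that have a window (21 are on the list), against 13.6% of all 32851 windows. A match is a description of the letters and not evidence of a bound factor.

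Basal and epidermal genes were high in the same libraries. Krt14, a keratin of basal epithelium (ENSMUSG00000045545, chromosome 11 100203162-100207548, - strand), stood at 3864, 2926 and 94.6 CPM in WT, 50.1, 71.4 and 113 in D542G, and 50.3, 159.5 and 839 in Y541S libraries. WT 1 and WT 2 were far above all mutants, WT 3 lay inside the mutant range, and Y541S 3 was the highest mutant. The difference was -3.79 ± 0.89 and was not called by edgeR (adjusted p = 0.611), but was by DESeq2 (-3.80, 0.00347). Without WT 1, WT 2 and Y541S 3 it was -0.07, with WT 3 alone standing for WT. Krt5 and Krt17, also basal keratins, and Trp63, a transcription factor of basal cells, had their 3 highest values in those 3 libraries. The contractile genes of myoepithelial cells did not follow them: Acta2, smooth muscle actin, stood at 22.8 and 40.6 CPM in WT 1 and WT 2 and at up to 167 CPM in D542G 3. Epidermal differentiation genes summed to 2217 CPM in Y541S 3, 440 in WT 1, 190 in WT 2, 127 in D542G 2 and 10.2 to 21.0 CPM in the other 5 libraries.

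Immunoglobulin genes varied as much, but not in the same libraries. They encode antibodies and are made by B lineage cells, above all plasma cells. Counts on heavy and light chain segments summed to 3449, 7491 and 19.1 CPM in WT, 839, 420 and 181 in D542G, and 2.04, 12140 and 40.8 CPM in Y541S libraries. Y541S 2, WT 2 and WT 1 were the highest, so WT 1 and WT 2 were high in both hair keratins and immunoglobulins, Y541S 3 in hair keratins only, and Y541S 2 in immunoglobulins only. Jchain, which joins antibody units into polymers, stood at 327, 593 and 0 CPM in WT, 70.1, 32.0 and 13.6 in D542G, and 0.0951, 1078 and 2.69 in Y541S libraries. Mzb1, a chaperone of antibody secretion, was highest in the same 3 libraries (18.2, 25.2 and 47.5 CPM), and the plasma cell receptor Tnfrsf17 reached at most 4.55 CPM. The 16 plasma cell genes with counts summed to 2538, 5780 and 562 CPM in WT, 1109, 847 and 456 in D542G, and 584, 7367 and 422 CPM in Y541S libraries. B cell genes summed to 3.23 to 30.1 CPM and T and natural killer cell genes to 3.26 to 11.6 CPM. Segments of similar sequence may share reads, so values of single segments are uncertain.

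Milk proteins set Y541S 2 apart a second time. Csn2 (beta-casein) stood at 9321 CPM in Y541S 2, 155 in D542G 3 and at most 1.54 CPM in the other 7 libraries. Csn1s2a (4395 and 45.2 CPM) and Csn1s1 (876 and 82.1 CPM) were high in the same 2 libraries, and Wap, whey acidic protein, reached 274.5 CPM in Y541S 2 and at most 0.361 CPM elsewhere. Other milk and alveolar genes were high everywhere: lactoferrin, Ltf, stood between 1745 and 8414 CPM and Mfge8 between 3053 and 14210 CPM. Over the 18 tested members the median log2 difference was 1.62, 16 lay above 0 and none was called by edgeR. An unadjusted p under 0.05 was reached by 1 (Csn1s1, 9.97 ± 4.37), where 3.06% of all genes tested were higher at that level. The median was 3.24 for Y541S and 0.10 for D542G, each against the same WT libraries. The summed list stood at 13700, 15490 and 10500 CPM in WT, 7518, 7668 and 13730 in D542G, and 11640, 43800 and 17630 CPM in Y541S libraries. The fitted difference of Csn2 ran from 3.19 to 17.3 over the alternatives.

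Caseins are known targets of STAT5, the factor downstream of the prolactin receptor, which binds sites of the form TTCNNNGAA. The start regions of 2 caseins hold such letters, in capitals, in the 110 bases before the RefSeq start (GRCm38.p6, chr5:87699426-87699535 on the - strand for Csn2 and chr5:87666098-87666207 on the + strand for Csn1s1).
Csn2: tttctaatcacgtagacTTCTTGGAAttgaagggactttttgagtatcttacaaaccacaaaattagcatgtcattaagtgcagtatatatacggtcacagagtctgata
Csn1s1: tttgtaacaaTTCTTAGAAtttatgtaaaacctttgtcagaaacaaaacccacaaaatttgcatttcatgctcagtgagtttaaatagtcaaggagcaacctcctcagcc
Both strands read the same for this motif, which occurred in the windows of 4 of the 15 milk genes with a window and in 8.30% of all windows.

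**Figure D2:**
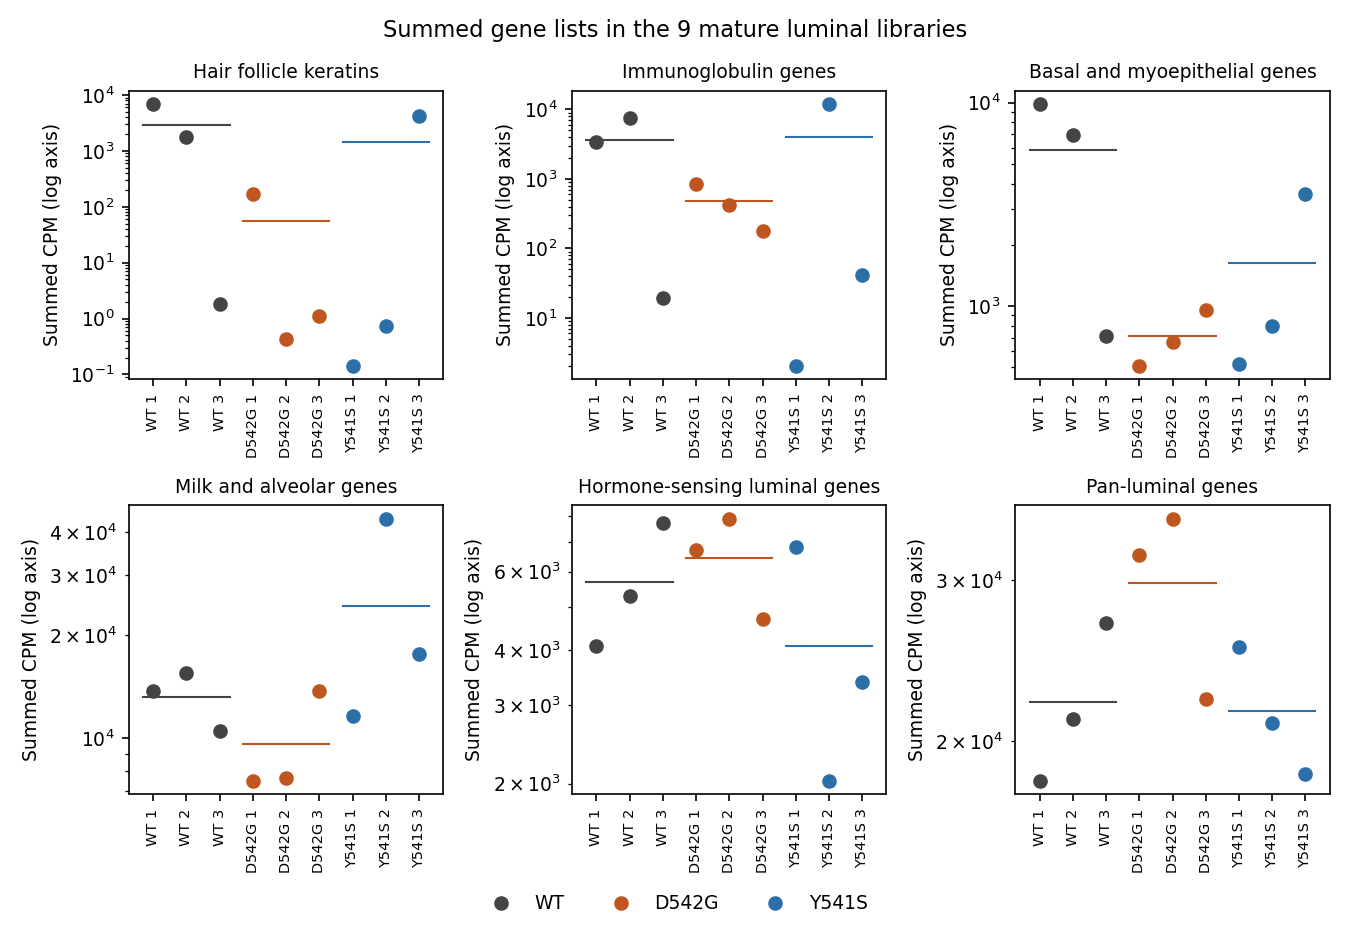
Summed CPM (log axes) of 6 gene lists in each ML library, coloured by genotype, with a line at each genotype mean. Hair keratins run from 0.143 to 7019 CPM and immunoglobulin genes from 2.04 to 12140 CPM with no order by genotype, whereas pan-luminal genes run from 18080 to 35080 CPM.

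Across all genes, the libraries did not separate by genotype. The first principal component of the ML libraries (log2(CPM + 1) of 10000 genes) held 37.3% of the variance, and WT 1 (65.7), WT 2 (27.4), Y541S 3 (23.2) and Y541S 2 (14.5) lay on its positive side. WT 3 (-31.9) lay on its negative side, beside D542G 1 (-32.1) and Y541S 1 (-30.9). The second component (23.3%) held Y541S 2 at 65.7 and the others between -26.1 and 18.1. Genotype accounted for 28.4% of the variance with 2 of the 8 degrees of freedom. Pairs of libraries of the same genotype correlated at r = 0.803 to 0.974 across genes (median 0.900, 9 pairs), and pairs of different genotypes at 0.778 to 0.960 (median 0.889, 27 pairs), as a description.

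The pooled comparison of mutants with WT called no gene. Of 18298 genes tested by edgeR, 0 (percent called 0) had an adjusted p under 0.05, and the smallest adjusted p was 0.433. An unadjusted p under 0.05 was reached by 1187 genes (6.49%), 560 higher and 627 lower in mutants. DESeq2 called 73 genes in the same contrast, 36 higher and 37 lower, and 120 in the 9 ML libraries alone. Limma-voom with library weights called 4 and, in the ML libraries alone, 0. Of the 73 DESeq2 calls, 63 had an unadjusted p under 0.05 in edgeR, and 12 were at 0 in every WT or in every mutant library. The single-genotype contrasts, which share the WT libraries, also gave 0 calls each by edgeR, for D542G (1129 genes at an unadjusted p under 0.05, 110 calls by DESeq2 and 93 by limma-voom) and for Y541S (1012, 51 and 3). D542G against Y541S gave 0 as well (886, 63 and 10). DESeq2 in the 9 ML libraries alone called 134, 57 and 89 genes in these 3 contrasts, and limma-voom there called 0, 0 and 1.

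Slc14a1, a urea transporter (ENSMUSG00000059336, chromosome 18 78100091-78142119, - strand), had the smallest p. It stood at 0.0962, 1.25 and 0 CPM in WT, 17.4, 11.4 and 17.6 in D542G, and 19.4, 27.4 and 35.4 CPM in Y541S libraries. All 6 mutant libraries lay above all 3 WT libraries. Such a separation, in either direction, occurred for 535 genes (2.92% of those tested), 334 of them higher in mutants (1.83%). The log2 difference was 5.54 ± 0.91 (95% interval 3.59 to 7.49) with an adjusted p of 0.433 by edgeR. The call depended on the setting: it was called by DESeq2 (5.53, adjusted p = 1.28e-11), without WT 2 (8.63, 0.00100) and without WT 3 (4.95, 0.0473), but not without WT 1 (5.05, 0.851) or by limma-voom (0.0942). In the 9 ML libraries alone its adjusted p was 0.706 by edgeR, and that of Adam28 was lower (0.541).

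In the N libraries, which entered the fit that ranked these genes through the shared spread but not the contrast, Slc14a1 stood at 7.05, 4.06 and 5.78 CPM in WT, 79.0, 55.7 and 42.9 in D542G, and 165, 115 and 60.4 CPM in Y541S libraries, again without overlap. The N difference was 3.86 ± 0.81 and was called (edgeR, adjusted p = 0.0302; 0.0345 without WT N 3). In N, 329 genes were called in all (1.80% of those tested, 1.27% higher and 0.530% lower in mutants), and 1096 (5.73%) without WT N 3. The share of all genes without overlap in N was not counted. Basal genes summed to 7281 to 41740 CPM in N and to 509 to 9888 CPM in ML libraries. WT N 3 had the lowest of these N sums, against 33410 and 41740 CPM in WT N 1 and 2. Pan-luminal genes summed to 20350 CPM in WT N 3 and to 3054 and 4046 CPM in WT N 1 and 2. The labels do not tell whether the N and ML libraries of a genotype share mice.

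The other genes of smallest p that were higher in mutants, by the rule for named genes, were Adam28, Dkk3, Eln and Nat10, and edgeR called none of these. DESeq2 called all 4, with adjusted p of 0.000225 for Adam28, 0.000889 for Dkk3 and 0.00245 for Eln and Nat10. These genes were picked for their edgeR p on the same counts, so the DESeq2 calls are not independent of that choice. Over all 18298 genes tested, DESeq2 called 73. Adam28, a membrane metalloprotease, stood at 0.0240, 0.0277 and 0 CPM in WT, 4.83, 2.95 and 7.45 in D542G, and 0.380, 1.02 and 2.15 CPM in Y541S libraries (6.93 ± 1.43, adjusted p = 0.576). Its WT values all lay below the level that 3 counts give there (0.0721 to 0.0831 CPM), so the fitted difference is no bound on a fold. Nat10, an RNA acetyltransferase, stood at 14.1 to 18.8 CPM in WT and 25.9 to 37.0 CPM in mutants (0.84 ± 0.18, 0.583). Dkk3, a secreted protein of the Dickkopf family, stood at 2.98 to 12.2 against 19.1 to 80.7 CPM (2.17 ± 0.48, 0.583). Eln, elastin, stood at 2.26 to 3.63 against 3.90 to 17.1 CPM (1.83 ± 0.40, 0.583). In N, Dkk3 was again higher in all mutant libraries (1.86 ± 0.47, adjusted p = 0.0613), and Nat10 had the opposite sign (-0.40 ± 0.17, 0.247). Of the 10 genes named for their p in ML, 7 had the same sign in N, 2 had groups that did not overlap there, and 1, Slc14a1, was called. Of all genes tested, 1.80% were called in N. The shares of all genes with the same sign or without overlap in N were not counted, so the first 2 counts have no base rate.

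Lower in mutants, by the same rule for named genes, were Nrg1, Apoe, Cxcl1, Eva1c and Pthlh, again with no call by edgeR. DESeq2 called all 5, with adjusted p from 0.000251 for Apoe to 0.00881 for Eva1c. These 5 were also picked for their edgeR p on the same counts, and DESeq2 called 73 of all 18298 genes tested. Cxcl1, a neutrophil chemokine also made by luminal progenitors, stood at 260, 356 and 260 CPM in WT, 38.4, 47.5 and 28.9 in D542G, and 53.9, 77.2 and 239 CPM in Y541S libraries (-2.09 ± 0.43, adjusted p = 0.576). WT libraries were all above the mutants, of which Y541S 3 came close. Its difference was -2.39 without the 3 libraries high in hair keratins. Cxcl2, a related chemokine, stood at -1.89 and the NF-κB inhibitor Nfkbia at -0.66. Of the 18 tested NF-κB and inflammatory genes 3 had an unadjusted p under 0.05, all lower (3.43% of all genes tested), while 8 lay above 0. The list median was -0.224 for both mutants, -0.158 for D542G and 0.092 for Y541S. Eva1c stood at 42.7 to 54.3 CPM in WT and 16.4 to 32.3 CPM in mutants (-0.92 ± 0.20, 0.583). In N both Cxcl1 (0.82 ± 0.46) and Eva1c (0.22 ± 0.21) had the opposite sign and were not called.

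For Nrg1, Apoe and Pthlh the difference was smaller in size without the libraries high in hair keratins, where WT 3 alone stood for WT. Eva1c changed less, from -0.915 to -0.845. Nrg1, a ligand of ErbB receptors made by basal cells, stood at 42.4, 17.9 and 11.2 CPM in WT, 5.95, 5.55 and 4.76 in D542G, and 6.11, 4.13 and 9.71 CPM in Y541S libraries (-1.99 ± 0.35, adjusted p = 0.447). By edgeR it was called without WT 3 (-2.32, 0.0407). Its difference was -1.10 without WT 1, WT 2 and Y541S 3. Apoe, a lipid carrier, stood at 8242, 5777 and 613 CPM in WT, 122 to 354 in D542G, and 160, 315 and 1436 CPM in Y541S libraries. Its difference was -3.67 ± 0.72 (0.576) with all libraries and -1.40 without those 3, and it was called without WT 3 (-4.19, 0.0473). Pthlh, a peptide hormone, stood at 219, 114 and 1.18 CPM in WT, at most 2.59 in 5 mutant libraries and at 27.4 CPM in Y541S 3, and its difference of -5.08 ± 1.13 (0.583) became 0.17. Whether other cells account for any of these differences was not tested.

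**Figure D3:**
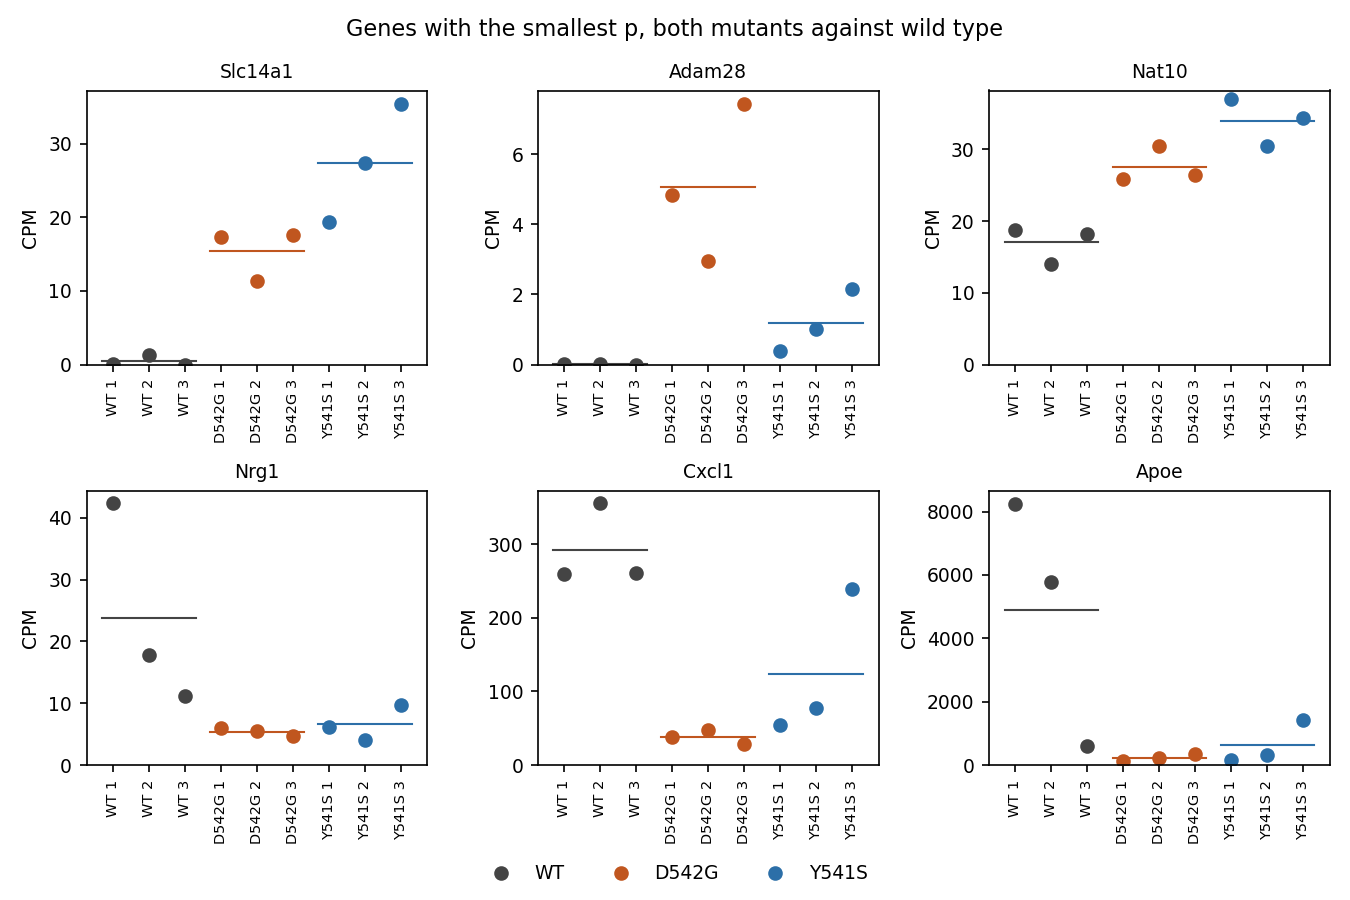
CPM (linear axes from 0) in each ML library, coloured by genotype with a line at each mean, for 6 of the 10 genes named for their p in the pooled comparison. Mutant and WT libraries do not overlap for Slc14a1, Adam28, Nat10, Nrg1 and Cxcl1, while for Apoe Y541S 3 (1436 CPM) lies above WT 3 (613 CPM).

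Gene groups outside hormone response were described by the same counts. Over all genes tested, 3.06% were higher and 3.43% lower in mutants at an unadjusted p under 0.05. Unfolded protein response genes, which act in folding of secreted proteins, had a median of 0.333 and 14 of 18 members above 0. The 4 with an unadjusted p under 0.05 were all higher in mutants: the disulfide isomerase Pdia6 (405 to 511 CPM in WT, 530 to 784 in mutants, 0.63 ± 0.19), the chaperones Calr (0.49 ± 0.18) and Hyou1 (0.88 ± 0.30), and Trib3 (0.87). For Pdia6, Calr and Hyou1 all mutant libraries lay above all WT libraries, as for 1.83% of all genes tested, and edgeR called none (adjusted p of 0.746 or more). DESeq2 in the ML libraries alone called Pdia6. Endothelial markers lay above 0 for 12 of 12 members (median 0.919, 3 at an unadjusted p under 0.05, none called) and their sums did not overlap between groups, at 169.6, 157.5 and 266 CPM in WT, 297, 309 and 337 in D542G, and 283, 363 and 426 CPM in Y541S libraries. Of 38 list sums, this was the 1 with all mutants above WT, and the progesterone-responsive list the 1 with all mutants below. The part of endothelial RNA in any other difference was not tested. Metallothioneins Mt1 (-1.27) and Mt2 (-1.45) and Zbtb16 were the 3 of 13 glucocorticoid and androgen response genes at an unadjusted p under 0.05, all lower and not called.

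For hair keratins and immunoglobulins, as for milk genes, the libraries of a group differed widely. All 18 tested hair keratins had a lower fitted value in mutants (median -3.27), yet WT 3 held 1.80 CPM and Y541S 3 held 4300. Of these keratins 4 had an unadjusted p under 0.05, where 3.43% of all genes tested were lower at that level. EdgeR called none of them, and DESeq2 called Krt33a and Krt84. Over all 18298 genes tested, DESeq2 called 73. Of 46 tested immunoglobulin segments 12 were lower and 1 higher at an unadjusted p under 0.05 (3.43% and 3.06% of all genes tested). Their median was -2.48, yet the library with the most was the mutant Y541S 2.

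The size of effect that these libraries could show depended on expression. Over all genes tested the approximate 95% interval of the mutant difference had a median reach of 0.921 on the log2 scale either side, or 1.89-fold. Its whole extent lay within 2-fold of no change for 7099 genes (38.8%) and within 4-fold for 65.9%. For the 3686 genes at an average log2 CPM of 6 or more the median reach was 1.39-fold and 76.7% lay within 2-fold. For the 4330 genes below a log2 CPM of 0 it was 6.88-fold and 1.27% did. Intervals of the hormone-sensing genes were wider than the median gene, reaching 1.64 either side, and those of hair keratins 4.26 and of milk genes 4.29. For Epcam (-0.69 to 0.76), Gata3 and Nrip1 (0.15 ± 0.15), a corepressor induced by estrogen, differences beyond 2-fold lay outside the interval. For Esr1, Pgr, Foxa1 and Prlr (-1.79 to 1.20) the interval extended beyond 2-fold in at least one direction.

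**Figure D4:**
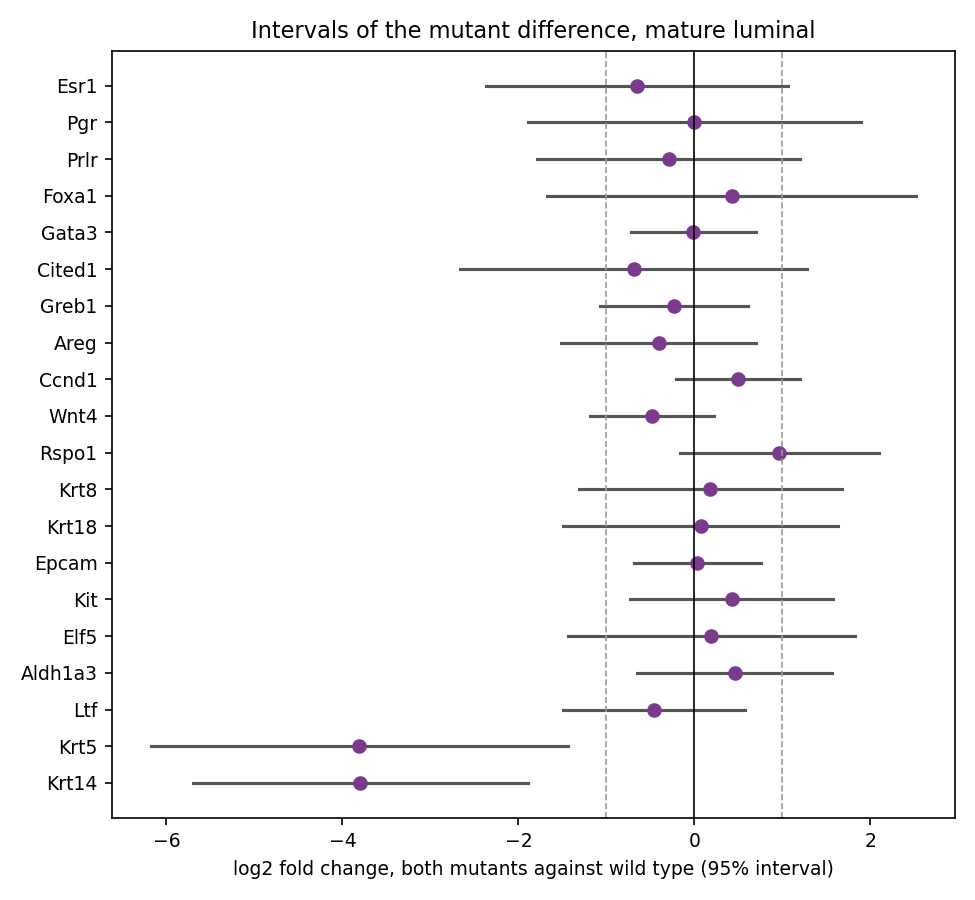
Log2 fold change (points) with approximate 95% intervals (lines) of 20 genes, both mutants against WT, with dashed lines at 2-fold either way. The intervals of Krt5 and Krt14 lie below 0 without a call by edgeR after adjustment, and all the others hold 0.

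**Figure D5:**
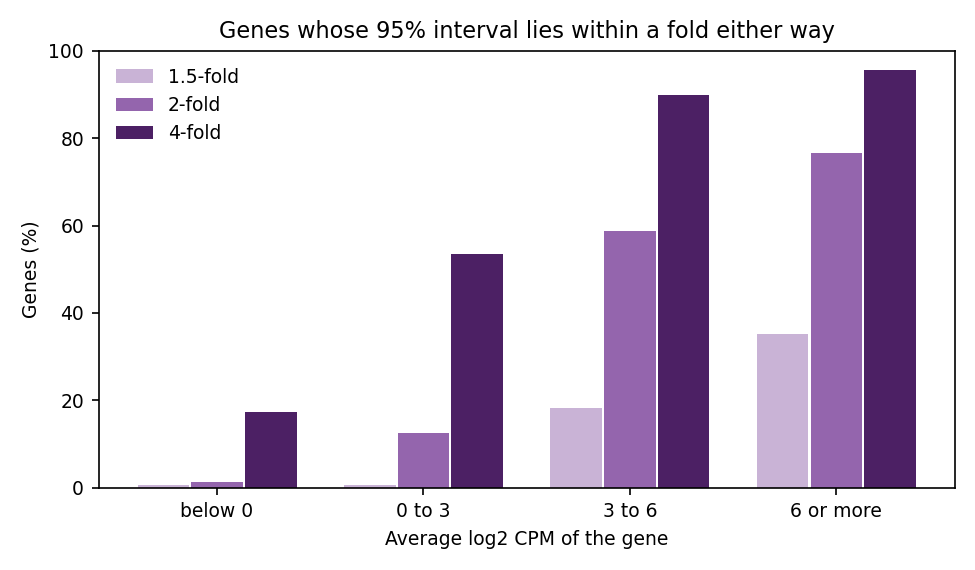
Percent of genes whose approximate 95% interval lies within 1.5-fold, 2-fold or 4-fold either way, in 4 classes of average log2 CPM. The share within 2-fold is 1.27%, 12.6%, 58.9% and 76.7% from the lowest class to the highest.

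The mutant difference in ML was also set against that in N, where the estrogen antagonist was the same. The interaction called 3 genes (0.0164% of those tested), all with a larger mutant difference in N. Pde4b, a phosphodiesterase of cyclic AMP, stood at 597 to 606 CPM in WT ML, 284 to 339 in D542G ML and 449 to 766 in Y541S ML, but at 611.5 to 649.6 CPM in WT N and 1750 to 3898 CPM in mutant N libraries (2.61 ± 0.28, adjusted p = 0.00215). Rrad, a small GTPase, stood at 10.4 to 38.0 CPM in all ML libraries, at 30.0 to 55.5 in WT N and at 274.6 to 734 CPM in mutant N libraries (3.30 ± 0.49, 0.0486). Padi1, a peptidylarginine deiminase, was at 0 in all WT N libraries and at 0.227 to 4.88 CPM in mutant N libraries, and at 0.850 to 4.81 CPM in all ML libraries (adjusted p = 0.0486). An unadjusted p under 0.05 was reached by 1781 genes, and the count of calls was 281 by DESeq2, 1051 by limma-voom and 117 by edgeR without WT N 3. Pde4b was called in all 17 alternatives run, Rrad in 6 and Padi1 in 4.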

How the data were processed

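RNA of sorted mammary cells was sequenced from Nextera XT libraries, per the labels' protocols. The authors deposited 1 table per library with whole-number read counts per gene, an RPKM value, which was not tested here, and a gene width. The build is GRCm38, per the submitters' processing notes. Aligner, counter and strand setting: not given in the sources used here. Of 52636 genes, 52489 matched GENCODE by identifier.

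Genes were filtered with filterByExpr, scaled by TMM and tested with edgeR 4.0.16 (R 4.3.3) quasi-likelihood fits over all 18 libraries in 6 groups, with Benjamini-Hochberg adjustment and calls under 0.05. The biological coefficient of variation was 0.652 with 12 residual degrees of freedom. The pooled contrast is the mean of both mutants minus WT. Each edgeR standard error (±) was worked back from the fitted difference and the F statistic of its test. The intervals are symmetric t intervals built on that value. Both are approximate, above all where the counts of a group are very low, as for Adam28 and Csn1s1. ML libraries held 34797778 to 46576132 counts. Normalization, filter, tool (DESeq2 1.42.0, limma 3.58.1), samples and replicate block were varied, and the test code was tested on simulated data.

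Members and gene lists were chosen with earlier results of these data known. Named genes were the 5 smallest p in each direction, the 15 largest SDs within genotypes, up to 4 genes per list and 36 fixed genes. Other genes were named after their values were seen. Genes with predicted-gene names were left out of the p and SD sets. The p set held only genes with an average log2 CPM of at least 3 over all 18 libraries. Adam28, in that set, averaged 2.09 CPM in ML and reached 56.4 CPM in N. The N contrast of the 10 genes named for their p was added after seeing the data. Sequences come from RefSeq (GRCm38.p6).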

Additional observations from a re-analysis of the deposited data

Results flagged for a closer look

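The mutant difference differed between the N and ML populations for 3 genes by the interaction test. On the log2 scale the N difference minus the ML difference was 2.61 for Pde4b, 3.30 for Rrad and 8.41 for Padi1. The last value is fitted to WT N libraries that are all at 0 and is no bound on a fold.

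Among the 6 mutant ML libraries, 1 library stood far from the other 5 in 15 of 38 summed lists by Dixon's test at the 95% level. Y541S 3 held the outlying sum of hair keratins (4300 CPM), hair keratin-associated proteins (68.7 CPM), epidermal genes (2217 CPM), basal genes (3557 CPM), sebocyte genes (82.7 CPM) and erythroid genes (88.5 CPM). Y541S 2 held that of immunoglobulin segments (12140 CPM), plasma cell genes (7367 CPM), milk genes (43800 CPM), immediate early genes (77860 CPM), glucocorticoid and androgen response genes (6961 CPM), MHC class II genes (567 CPM) and Schwann cell genes (342 CPM). D542G 3 held that of mast cell and neutrophil genes (20.7 CPM) and nuclear receptor coregulators (4237 CPM). Chance marks about 1 in 20 groups this way, and the lists are not independent, since they come from the same 6 libraries. The causes were not tested.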

How the results depend on the processing

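The count of genes called depended on the tool and on single WT libraries, and the cause was not tested. For mutants against WT (0 by edgeR), DESeq2 called 73, DESeq2 in the ML libraries alone 120, limma-voom 4, and edgeR without WT 1, WT 2 and Y541S 3 called 4. Leaving out 1 ML library at a time gave 0 to 9: without WT 3 it was 9 (Slc14a1, Nrg1 and Apoe among them), without WT 2 Slc14a1 alone and without WT 1 Gpr27 alone. In the same order of settings, D542G against WT gave 110, 134, 93 and 3 (0 to 1 when leaving out 1 library), and Y541S against WT gave 51, 57, 3 and 4 (0 to 1). D542G against Y541S gave 63, 89 and 10, and 1 by limma-voom in the ML libraries alone (0 to 0 when leaving out 1 library). The N minus ML count of 3 became 1 without TMM factors, 1 without the filter, 281 by DESeq2, 1051 by limma-voom, 117 without WT N 3 and 7 without the 3 hair keratin libraries (1 to 3 when leaving out 1 ML library).

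The median reach of the interval, 0.921, was 1.47 without the filter, 1.63 without the 3 hair keratin libraries and 0.998 to 1.15 when leaving out 1 library. The median SD within genotypes, 0.336 on log2(CPM + 1), was 0.223 on log2(CPM + 5). The sign turned for Pthlh (0.17) and Greb1 (0.45) without the 3 hair keratin libraries, where WT 3 alone stands for WT and is assumed to vary like the other groups. It also turned for Greb1 without WT 1 (0.115) and for Esr1 without WT 3 (0.0837). Leaving out 1 library moved Esr1 between -1.07 (without Y541S 1) and 0.0837, and Greb1 between -0.468 (without WT 3) and 0.115. Of 58 named genes tested under up to 21 alternatives, 46 were called in none and 30 kept their sign in all. The 58 are the p, SD, fixed and interaction genes. Genes named only from lists, such as Fxyd2 and Pdia6, are not among them.

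Among ML libraries, the library numbers gave no sign of pairing across genotypes. Same-numbered ML libraries of different genotypes correlated in their deviations at -0.467 to 0.219 (9 pairs), and other pairs at -0.275 to 0.615 (18 pairs). This check held no N library, so whether an N library and an ML library came from the same mouse was not tested. Milk genes summed to 43800 CPM in Y541S ML 2 and 39740 CPM in Y541S N 2. The other N libraries held milk sums of 1378 to 2258 CPM. Immunoglobulin segments summed to 12140 CPM in Y541S ML 2 and 9.23 CPM in Y541S N 2, and to at most 115 CPM in any N library. The main N minus ML contrast treated all libraries as independent. With the replicate block the 4 ML contrasts gave 0 calls each, the N minus ML contrast 1, and the median reach was 0.966. Below a log2 CPM of 0, depth and spread left a median reach of 6.88-fold.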
